A study of Homo sapiens with 4 samples.

Results

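HIF regulators and direct hypoxia targets were followed in SKOV3 cells, a long-established line from a human ovarian cancer, as 10 genes chosen by symbol out of the 19475 gene symbols measured by RNA-seq. They are the hypoxia-inducible factor (HIF) subunit genes HIF1A, EPAS1 and ARNT, the HIF hydroxylase genes EGLN1, EGLN3 and HIF1AN, and the targets CA9, BNIP3, NDRG1 and ADM. Cells on a tissue culture plate (TCP, labelled day 0, 2 libraries) were compared with tumor spheroids grown on a polymer X-coated plate (labelled day 8, 2 libraries). No gene was altered, and both groups are the same unmodified line. According to the methods, spheroids received serum replacement and were dissociated with accutase every 4 days, whereas the line was kept in fetal bovine serum for maintenance. The sample labels give 1 serum replacement protocol for all libraries. Substrate, culture time and possibly medium therefore changed together, and their contributions cannot be told apart. Oxygen was not measured, and nothing states that replicates came from separate cultures, so p-values measure the spread between these libraries, which may be technical.

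HIF is a transcription factor made of an oxygen-regulated alpha subunit (HIF-1 alpha from HIF1A or HIF-2 alpha from EPAS1) and a stable partner from ARNT. In oxygenated cells, the prolyl hydroxylases of the EGLN family mark the alpha subunit for the VHL ubiquitin ligase, and the asparaginyl hydroxylase HIF1AN keeps it from binding coactivators. When oxygen falls, the alpha protein accumulates and HIF binds hypoxia response elements, so HIF activity is set largely at the protein level, which mRNA does not report. EGLN1 and EGLN3 are themselves HIF targets and act as feedback.

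Levels are given in FPKM, that is, sequenced tags on exons scaled for transcript length and for the size of the library, so that genes can be compared with each other. The steps between low values put the libraries at 38402000 to 44919000 tags. The least abundant member, CA9 on TCP, rested on 228 and 230 tags, so counting error was small for all members. Tissue identity was checked against marker genes. KRT8, KRT18, PAX8 and ERBB2 were abundant in all libraries, but did not move together. ERBB2 had 198 and 206 FPKM on TCP and 913 and 860 on polymer X, whereas the keratin genes KRT8, KRT18 and KRT7, named with COL1A1 below after their values were seen, had log2 fold changes of -0.87, -0.44 and -0.76 and were not called. Of the 12 markers of ovarian epithelial cancer cells, 8 were tested. At a limma adjusted p below 0.05, 5 of them were higher on polymer X and 3, the keratin genes, were lower. Besides ERBB2, PAX8 and EPCAM were called higher (log2 fold changes 1.06 and 1.05), EPCAM at no more than 1.39 FPKM. CD44 and MSLN rose by 0.80 and 0.55 and were not called. MUC16, WT1, KRT19 and CDH1 stayed below 1 FPKM and were not tested. All 4 leukocyte and all 3 endothelial markers also stayed below 1 FPKM, with summed levels of 0.096 to 0.962 and 0.009 to 0.617, and CD3E was at 0 throughout. Of 5 fibroblast markers, 3 rose on polymer X (LUM, DCN and COL1A2), and the summed level of the 5 went from 16.8 and 17.5 FPKM to 81.1 and 71.8, while PDGFRB lay at or below 0.115. COL1A1, the remaining marker, had 8.21 and 8.48 FPKM on TCP and 3.81 and 3.77 on polymer X (log2 fold change -0.96, not called). In bulk RNA, a different number of cells and a different amount of RNA per cell cannot be told apart.

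Of the 10 members, all of which passed the filter on low values, 5 were called higher on polymer X and 0 were called lower, where a call needed a limma adjusted p below 0.05 together with a log2 fold change of 1 or more in either direction. Among all 11964 genes tested, 10.7% were called higher and 9.45% lower by the same rule. The 5 called members were EPAS1, EGLN3, CA9, NDRG1 and ADM. By adjusted p alone, 7 members were higher and 1 was lower, where 37.4% and 43.6% of all genes tested were. In all 10 members the 2 groups did not overlap, with polymer X above TCP in 8 and below it in 2. Such separation was common, as 41.9% of all genes tested lay above and 48.4% below. Fold changes are on the scale of log2(FPKM + 1), which understates the change of low genes. An exact two-sided permutation test of 2 against 2 libraries has a smallest possible p of 0.33, and limma's smaller values come from pooling the variance over many genes.

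**Figure D1:**
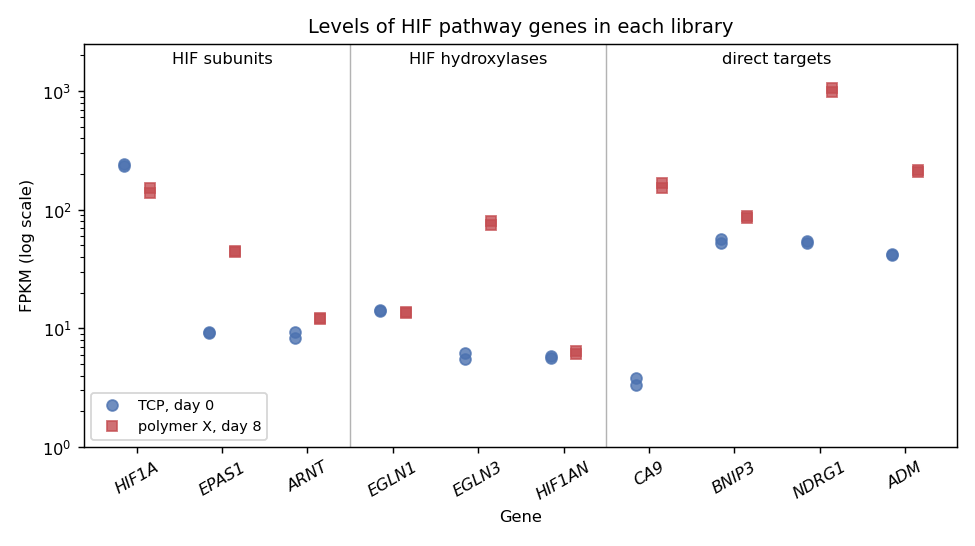
FPKM (log axis) of the 10 genes in each library, with circles for the 2 TCP libraries and squares for the 2 polymer X libraries. CA9, NDRG1 and EGLN3 showed the widest gaps between groups, while EGLN1 and HIF1AN lay within narrow ranges of 13.5 to 14.3 and 5.65 to 6.40 FPKM.

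The HIF subunit genes moved in different directions. HIF1A (NM_001530, hg19 chromosome 14, 62162119 to 62214977) was the most abundant member on TCP, at 236 and 241 FPKM, and was at 154 and 138 on polymer X. Both polymer X libraries were thus lower, by a log2 fold change of -0.71 (standard error 0.07, limma adjusted p = 8.5e-06). Of the genes tested, 35.3% had a larger absolute change. The HIF1A change missed the fold change minimum, with a 95% confidence interval of -0.86 to -0.55. Quantile normalization of the libraries brought it to -0.38. The 3 HIF1A transcripts, which share most exons, gave values of -0.72 to -0.67. In GENCODE v29, 117 of 5151 exonic bases of HIF1A are shared with the antisense gene HIF1A-AS1 and 148 with AL137129.1 on the same strand, and the tags were counted without regard to strand.

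EPAS1 (NM_001430, hg19 chromosome 2, 46524541 to 46613842) had 9.33 and 9.08 FPKM on TCP and 43.7 and 45.0 on polymer X. The replicates were close in both groups, and the mean rose 4.82-fold, a log2 fold change of 2.15 (standard error 0.06, limma adjusted p = 3.0e-09). Among the genes tested, 2.78% had a larger absolute change. ARNT (NM_001286036, hg19 chromosome 1, 150782181 to 150849244) had 8.24 and 9.30 FPKM on TCP and 12.0 and 12.4 on polymer X. Both polymer X libraries were higher, with a log2 fold change of 0.43 (95% confidence interval 0.27 to 0.60, limma adjusted p = 0.00034), which was under the fold change minimum. A larger absolute change than that of ARNT was seen in 55.9% of the genes tested. The 8 ARNT transcripts gave 0.43 to 0.44.

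The balance of the 2 alpha subunit genes therefore shifted. Taking HIF1A, EPAS1 and HIF3A together, EPAS1 made up 3.81% and 3.63% of the summed FPKM on TCP and 22.1% and 24.7% on polymer X. HIF3A, which encodes a further alpha subunit, was nearly absent, with no library above 2 tags. The summed level of the alpha subunit genes was 248 ± 3.58 FPKM on TCP (SD, n = 2) and 190 ± 10.7 on polymer X (SD, n = 2). HIF1A remained the larger component in every library. The log2 ratio of EPAS1 to HIF1A was -4.66 and -4.73 on TCP and -1.82 and -1.61 on polymer X, a difference of 2.98 (exact two-sided permutation p = 0.33, the smallest that 2 against 2 libraries can give). Leaving out each library in turn gave differences of 2.88 to 3.08.

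Among the oxygen sensors, EGLN3 and EGLN1 behaved differently. EGLN3 (NM_022073, hg19 chromosome 14, 34393421 to 34420284), a prolyl hydroxylase known for strong induction by hypoxia, had 5.49 and 6.16 FPKM on TCP and 73.7 and 80.2 on polymer X. The groups were far apart, with a 13.2-fold higher mean and a log2 fold change of 3.52 (standard error 0.07, limma adjusted p = 9.2e-10). Only 0.351% of the genes tested had a larger absolute change, and its 2 transcripts gave 3.52 and 3.63.

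EGLN1 (NM_022051, hg19 chromosome 1, 231499497 to 231560790), the main HIF prolyl hydroxylase in most cells, had 14.1 and 14.3 FPKM on TCP and 13.8 and 13.5 on polymer X. Its log2 fold change of -0.06 did not pass the test (95% confidence interval -0.19 to 0.07, limma adjusted p = 0.37), and it was 0.09 under quantile normalization. HIF1AN (NM_017902, hg19 chromosome 10, 102295641 to 102313681), the asparaginyl hydroxylase also called factor inhibiting HIF, had 5.65 and 5.81 FPKM on TCP and 6.10 and 6.40 on polymer X. It did not pass the test either, with a log2 fold change of 0.11 (95% confidence interval -0.05 to 0.26, limma adjusted p = 0.17). For both genes the interval leaves out a change as large as the minimum of 1. In GENCODE v29, HIF1AN shares 325 of its 13950 exonic bases with NDUFB8 on the opposite strand. The deposited hg19 row used for NDUFB8 did not overlap HIF1AN, and it had 48.9 and 48.0 FPKM on TCP and 37.2 and 33.9 on polymer X. The part of the GENCODE overlap in the HIF1AN value was not tested.

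The third prolyl hydroxylase gene, EGLN2, was the most abundant of the family on TCP. It had 36.0 and 36.1 FPKM there and 28.9 and 27.1 on polymer X. Its log2 fold change of -0.36 was short of the fold change minimum. EGLN3 made up 9.86% and 10.9% of the summed FPKM of the 3 EGLN genes on TCP and 63.4% and 66.4% on polymer X, and the sum itself went from 56.1 ± 0.69 FPKM (SD, n = 2) to 119 ± 3.09 (SD, n = 2). EGLN1 contributed 25.4% and 25.3% on TCP and 11.8% and 11.1% on polymer X. The order of the 3 genes was EGLN2, EGLN1, EGLN3 in both TCP libraries and EGLN3, EGLN2, EGLN1 in both polymer X libraries. The log2 ratio of EGLN3 to EGLN1 was -1.36 and -1.22 on TCP and 2.42 and 2.58 on polymer X (exact two-sided permutation p = 0.33, again the smallest possible).

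**Figure D2:**
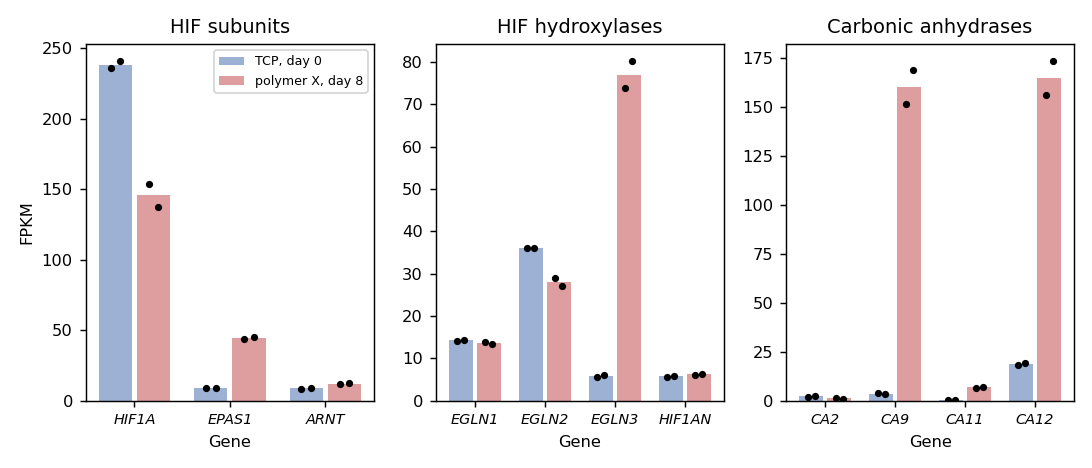
Mean FPKM (bars, linear axis from 0) of the HIF subunit, HIF hydroxylase and carbonic anhydrase genes on TCP and polymer X, with points for the 2 libraries of each group. EPAS1 and EGLN3 rose beside a lower HIF1A and a nearly level EGLN1, and CA9 reached a level similar to that of CA12.

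The direct targets differed widely in size of change. CA9 (NM_001216, hg19 chromosome 9, 35673915 to 35681154) encodes carbonic anhydrase IX, a cell surface enzyme that hydrates carbon dioxide and is widely used as a hypoxia marker. It had 3.85 and 3.32 FPKM on TCP and 152 and 169 on polymer X. This was the largest change among the members, a 44.7-fold higher mean and a log2 fold change of 5.14 (standard error 0.08, limma adjusted p = 2.1e-10), and 8 of the 11964 genes tested had a larger rise. In GENCODE v29, 643 of 1670 exonic bases of CA9 are shared with ARHGEF39 on the opposite strand. The deposited hg19 row used for ARHGEF39 did not overlap CA9, and it had 9.69 and 9.44 FPKM on TCP and 6.61 and 6.33 on polymer X. As tags were counted without strand, the CA9 level on TCP may include tags of ARHGEF39. The part of the GENCODE overlap in the fold change of CA9 was not tested.

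NDRG1 (NM_001258432, hg19 chromosome 8, 134249414 to 134309547), a stress-responsive gene linked to growth arrest and differentiation, had 54.3 and 52.0 FPKM on TCP and 977 and 1067 on polymer X. Its log2 fold change was 4.24 (standard error 0.07, limma adjusted p = 2.4e-10), a 19.2-fold higher mean. On polymer X, NDRG1 was the most abundant member and ranked 20th of all 19475 symbols, against 1082nd on TCP. The 4 NDRG1 transcripts gave 4.23 to 4.24. ADM (NM_001124, hg19 chromosome 11, 10326527 to 10328949), the gene of the vasodilator peptide adrenomedullin, had 41.7 and 42.3 FPKM on TCP and 208 and 215 on polymer X. The mean rose 5.03-fold, with a log2 fold change of 2.30 (standard error 0.05, limma adjusted p = 1.9e-09).

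BNIP3 (NM_004052, hg19 chromosome 10, 133781187 to 133795517) encodes a BCL2 family protein of the outer mitochondrial membrane that serves as a mitophagy receptor. It had 56.9 and 52.7 FPKM on TCP and 85.9 and 88.2 on polymer X. Both polymer X libraries were higher, but the log2 fold change of 0.66 was under the fold change minimum (95% confidence interval 0.53 to 0.79, limma adjusted p = 5.2e-06). Its change was thus smaller than those of the other 3 targets, whose confidence intervals lay above 2. Among all genes tested, 38.4% had a larger absolute change than BNIP3.

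**Figure D3:**
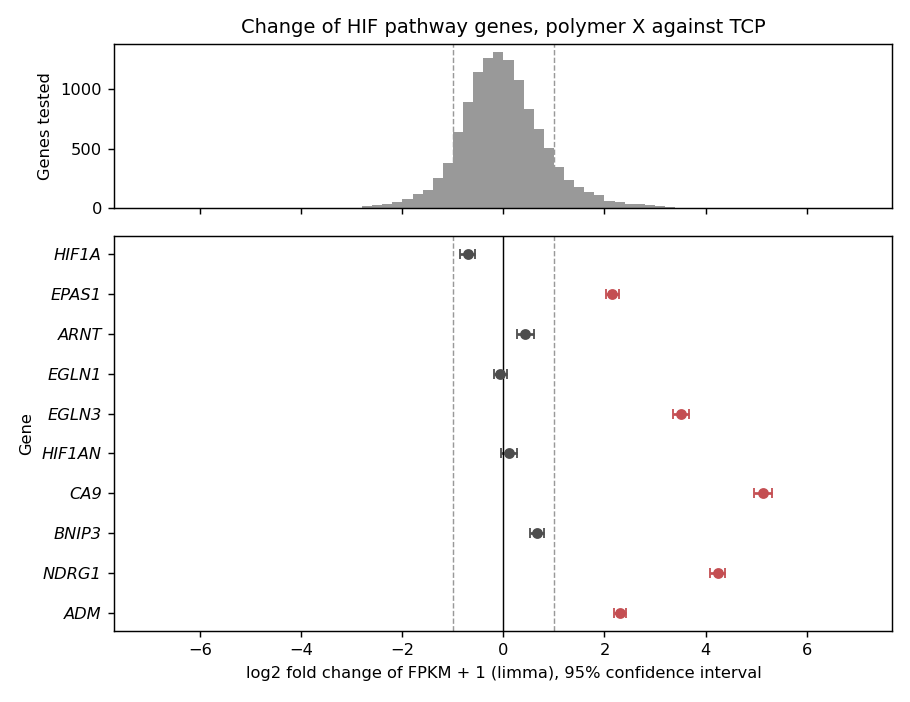
Log2 fold change of FPKM + 1 with its 95% confidence interval for each member (lower panel, red for genes called higher) under the distribution over the 11964 genes tested (upper panel). Dashed lines mark a fold change of 1 in either direction, and CA9, NDRG1, EGLN3, ADM and EPAS1 lay beyond it.

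The order of levels changed with these differences. On TCP, the members ran from HIF1A through BNIP3, NDRG1, ADM, EGLN1, EPAS1, ARNT, EGLN3 and HIF1AN to CA9. The ranges of the 2 libraries overlapped between BNIP3 and NDRG1, between EPAS1 and ARNT, and between EGLN3 and HIF1AN, so these neighbours did not differ beyond their spread. On polymer X, the order was NDRG1, ADM, CA9, HIF1A, BNIP3, EGLN3, EPAS1, EGLN1, ARNT and HIF1AN, and CA9 and HIF1A were the neighbours with overlapping ranges. CA9 thus moved from the lowest of the 10 to the third, and from rank 8804 to rank 197 among all symbols.

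The promoter letters of the members were examined, since HIF binds a short core written as ACGTG or GCGTG. RefSeq promoter windows (GRCh38.p14, 250 bases before to 50 after the start) were found for 9 of the 10 members. NDRG1 was not matched. Both cores were searched on both strands. ACGTG lay in 21.4% of all 35116 windows and in 25.2% of the windows of tested genes, and either core lay in 48.4% and 60.8%. Of the 10 member windows (HIF1A has 2), 3 held ACGTG and 6 held either core, so the share of members was close to that of tested genes. The 250 bases before the start are shown for 4 genes that contrast in change and in core letters, with cores in capitals on whichever strand they fall (CACGT and CACGC are the cores read on the opposite strand). CA9 and EGLN1 each have a single ACGTG close to the start, BNIP3 has the most cores, and EGLN3 has none.
CA9 (chr9:35673678-35673927, plus strand): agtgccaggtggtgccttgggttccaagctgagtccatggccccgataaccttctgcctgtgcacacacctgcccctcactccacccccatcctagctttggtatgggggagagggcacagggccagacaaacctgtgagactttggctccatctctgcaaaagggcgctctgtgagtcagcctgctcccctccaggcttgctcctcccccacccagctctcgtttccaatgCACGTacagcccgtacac
EGLN1 (chr1:231422288-231422537, minus strand): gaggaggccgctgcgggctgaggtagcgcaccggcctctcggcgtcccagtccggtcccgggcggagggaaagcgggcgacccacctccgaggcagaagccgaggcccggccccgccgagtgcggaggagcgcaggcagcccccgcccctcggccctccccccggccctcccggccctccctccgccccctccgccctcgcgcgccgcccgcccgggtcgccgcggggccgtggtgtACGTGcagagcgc
EGLN3 (chr14:33951075-33951324, minus strand): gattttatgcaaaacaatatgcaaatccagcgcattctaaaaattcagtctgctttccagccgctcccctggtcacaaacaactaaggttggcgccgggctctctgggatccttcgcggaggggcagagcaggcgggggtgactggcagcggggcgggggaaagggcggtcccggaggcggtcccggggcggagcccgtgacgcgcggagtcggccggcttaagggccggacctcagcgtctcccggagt
BNIP3 (chr10:131981924-131982173, minus strand): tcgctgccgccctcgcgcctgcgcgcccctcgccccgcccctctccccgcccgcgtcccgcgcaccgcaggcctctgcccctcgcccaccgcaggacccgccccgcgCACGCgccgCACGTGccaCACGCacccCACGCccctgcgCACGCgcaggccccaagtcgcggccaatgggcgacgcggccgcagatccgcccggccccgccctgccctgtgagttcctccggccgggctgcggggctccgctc

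The core of CA9 starts at base -18 and that of EGLN1 at base -13, counted backwards from the start. The level of CA9 rose 44.7-fold, whereas that of EGLN1 did not pass the test. BNIP3 holds 6 matches, of which 2 are the same CACGTG read on both strands (CACGTG lay in 7.26% of all windows), and its change was under the fold change minimum. ADM, EPAS1 and HIF1A each hold a single GCGTG, at bases -101, -117 and -204. ARNT, EGLN3 and HIF1AN hold neither core in these windows. A match is a description of letters and says nothing about binding, and elements outside the window were not examined.

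**Figure D4:**
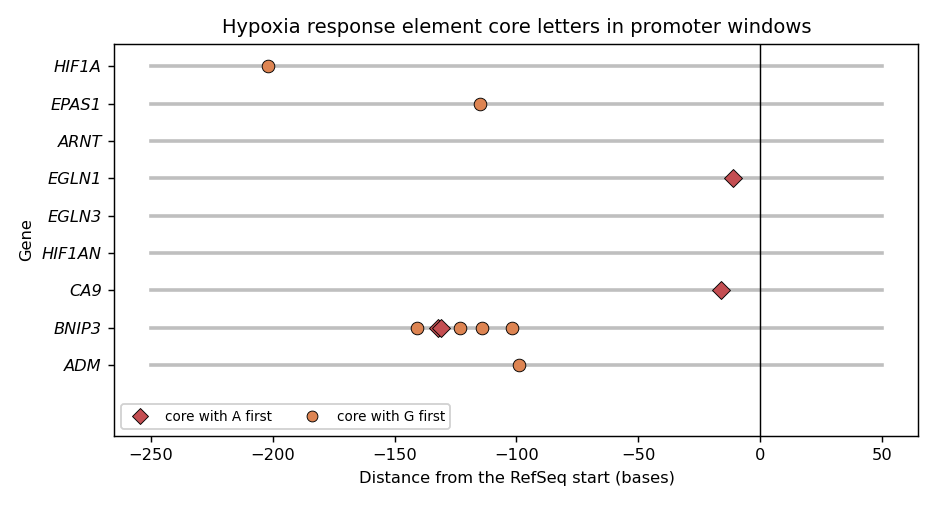
Positions of the core letters in the promoter windows of the 9 matched members, as distance in bases from the RefSeq start (vertical line), with diamonds for the core beginning with A and circles for that beginning with G on either strand. BNIP3 holds 6 matches, while ARNT, EGLN3 and HIF1AN hold none, and the line for HIF1A combines its 2 windows.

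The rest of the pathway was described with lists written from general knowledge, but with earlier results of these data known. Of 19 other HIF regulators, 18 were tested, and 1 was called higher and 1 lower. By adjusted p alone, 7 were higher and 10 lower. Over all genes tested, 10.7% were called higher and 9.45% lower, and 37.4% and 43.6% were so by adjusted p alone. The median log2 fold change of these regulators was -0.31, against -0.06 over all genes tested, and it was -0.13 under quantile normalization. The gene called higher was CITED2, a HIF target that competes with HIF for coactivators, with 19.1 and 17.6 FPKM on TCP and 42.2 and 40.4 on polymer X (log2 fold change 1.13, limma adjusted p = 2.0e-07). The gene called lower was HSP90AA1, a chaperone that stabilizes HIF-1 alpha among many clients, with 954 and 976 FPKM on TCP and 242 and 207 on polymer X (log2 fold change -2.11, limma adjusted p = 2.4e-08).

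The VHL ubiquitin ligase genes, chosen for naming after their values were seen, did not move as a unit. VHL, the subunit that recognizes hydroxylated HIF, had a log2 fold change of 0.73. The scaffold and adaptor genes CUL2, RBX1 and ELOC had -0.70, -0.66 and -0.70, and ELOB had -0.07 with a limma adjusted p of 0.37. The coactivator genes EP300 and CREBBP had -0.30 and -0.53. None of these 7 passed the fold change minimum.

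Of 51 other HIF targets, 49 were tested, 24 of them were called higher and 2 lower, and the median log2 fold change was 0.97, also with the 1 gene at the detection floor set to its bound. By adjusted p alone, 42 were higher and 5 lower. Over all genes tested, the shares were 10.7% called higher and 9.45% called lower, and 37.4% and 43.6% by adjusted p alone. The largest rises were those of CXCR4, a chemokine receptor (log2 fold change 5.71), ANGPTL4, a lipase inhibitor (5.67), VEGFA, the angiogenic growth factor (3.80), and CA12, a further membrane carbonic anhydrase (3.08). VEGFA had 66.3 and 65.4 FPKM on TCP and 875 and 991 on polymer X. SLC2A3, a glucose transporter named after its values were seen, had 0 tags on TCP. Its polymer X mean was at least 223-fold higher against a floor of 3 tags per library, although it can share tags with its close paralog SLC2A14.

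EDN1, the gene of the vasoconstrictor peptide endothelin, was among the 2 targets called lower. EDN1 had 72.1 and 70.6 FPKM on TCP and 7.03 and 6.66 on polymer X (log2 fold change -3.21). The glycolytic enzyme targets LDHA, ENO1, PGK1 and ALDOA, named after their values were seen, changed less than the members called. LDHA and ENO1, both at 1438 FPKM or more in every library, had -0.09 and -0.06 and did not pass the test (limma adjusted p = 0.29 and 0.50). PGK1 and ALDOA had 0.59 and 0.43. These 4 genes have processed pseudogenes with which they can share tags. Further targets of glucose uptake and use, also named after their values were seen, rose more. SLC2A1, PFKFB4 and HK2 were called higher (log2 fold changes 1.86, 1.80 and 1.71), and PDK1 and PFKFB3 had 0.78 and 0.74.

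**Figure D5:**
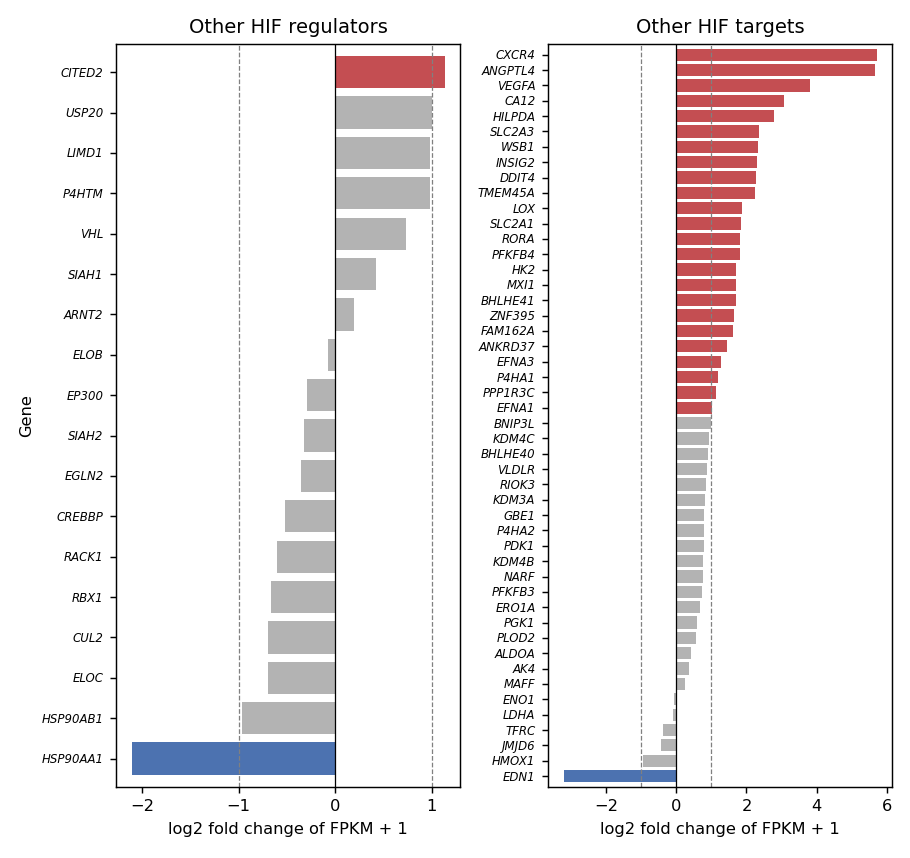
Log2 fold change of FPKM + 1 for the 18 tested other HIF regulators (left) and 48 of the 49 tested other HIF targets (right), sorted by value, with red for genes called higher, blue for genes called lower, grey for the rest and dashed lines at a change of 1. Regulators other than CITED2 and HSP90AA1 lay within the lines, some of them close to a line, while 24 targets lay beyond the upper line.

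Relatives of the targets gave further values, to be read beside the 10.7% of all genes tested that were called higher and the 9.45% called lower. Of 15 carbonic anhydrase genes, 6 were tested and 3 were called higher, namely CA9, CA12 and CA11. CA12 had 18.0 and 19.2 FPKM on TCP and 156 and 174 on polymer X. CA9 and CA12 accounted for 17.5% and 82.1% of the summed FPKM of the membrane-bound forms (CA4, CA9, CA12 and CA14) in TCP replicate 1, and for 49.2% and 50.7% in polymer X replicate 1. CA11, a form without known catalytic activity, had 0.227 and 0.158 FPKM on TCP and 6.53 and 7.08 on polymer X. The cytosolic CA2 had 1.93 and 2.47 FPKM on TCP and 1.25 and 1.08 on polymer X (log2 fold change -0.56).

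Within the NDRG and BNIP families, NDRG1 and NDRG4 were called higher out of 8 genes tested. NDRG4 went from 1.15 and 1.38 FPKM to 17.8 and 20.1, a log2 fold change of 3.14. NDRG3 had -0.13 and NDRG2 0.96. BNIP3L, the closest relative of BNIP3 and likewise a mitophagy receptor, had 32.3 and 32.5 FPKM on TCP and 65.2 and 63.9 on polymer X, and at 0.97 it also missed the fold change minimum. Of the 7 genes of the adrenomedullin system, 2 were tested, ADM and ADM2 (0.95). The receptor genes CALCRL, RAMP1, RAMP2 and RAMP3 stayed below 1 FPKM in all libraries and were not tested. CALCRL, the receptor of adrenomedullin that the RAMP proteins modify, had 0.061 and 0.034 FPKM on TCP and 0.485 and 0.428 on polymer X, with at most 116 tags.

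Other programs differed between the same libraries, where 10.7% of all genes tested were called higher and 9.45% lower. All 10 genes of a cell cycle list were called lower on polymer X, and their summed level went from 632 and 629 FPKM to 110 and 115. Of 6 genes of a stress response list, DDIT3 and TRIB3 were called higher (log2 fold changes 1.34 and 1.28) and ATF3 was called lower (-1.29), with summed levels of 53.5 and 53.9 FPKM on TCP and 92.7 and 94.9 on polymer X. The part of these shifts, and that of the fibroblast markers, in the changes of the HIF pathway genes was not tested.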

How the data were processed

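RNA-seq of 2 TCP and 2 polymer X libraries of SKOV3 cells was used. The authors deposited FPKM values for 50078 RefSeq transcripts, made with HOMER on hg19 from exon tags counted without strand, per the file headers. The HOMER version is not given in the sources used here. The submitters' processing notes also list STAR 2.4.0 and DESeq. Where a symbol had several transcripts, that with the largest FPKM averaged over the 4 libraries stood for it. Genes reaching 1 FPKM in 2 or more libraries entered limma 3.58.1 (R 4.3.3) as log2(FPKM + 1) values (variance trend, no replicate block, Benjamini-Hochberg adjustment over 11964 genes), and a call required an adjusted p below 0.05 and a log2 fold change of 1 or more in size. The fit was tested on simulated data. Depth came from the steps between low FPKM values, all of which, among the low values used, came within 0.1 of whole tags. The floor of 3 tags covers counting error only. Mean chi-square between replicates was 5.10 (TCP) and 5.82 (polymer X) per gene, so replicates differed by more than counting error.

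The members and the gene lists were chosen with earlier results of these data known. Named genes were every member, from each further list the 4 called genes that changed most in either direction, relatives of members, genes overlapping a member, and the 3 genes nearest in pattern to CA9. Others are stated as chosen after their values were seen, and 1 gene of the target list is not reported here by name. Promoter sequences came from RefSeq (GRCh38.p14) and exon overlaps from GENCODE v29, with no coordinates converted. Alternatives were a pseudocount of 0.1, no filter, a mean of 5 FPKM or more, quantile normalization, a common median, a replicate block, summed transcripts, no variance trend, no fold change minimum and each library left out. Plots were drawn with matplotlib 3.10.9.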

Additional observations from a re-analysis of the deposited data

How the results depend on the processing

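All 10 members kept their call under the 12 alternatives that refitted the model, and 119 of 120 member values kept their direction. The exception was EGLN1, at 0.090 under quantile normalization. Dropping the fold change minimum gave 4477 higher and 5212 lower genes, with 7 members higher and 1 (HIF1A) lower, and requiring a mean of 5 FPKM or more gave 702 higher genes. The median of the other HIF targets was 1.06 with a pseudocount of 0.1, 0.89 with a mean of 5 FPKM or more, 1.25 under quantile normalization, 1.02 with a common median and 1.04 with summed transcripts. That of the other HIF regulators was -0.13 under quantile normalization. The cause was not tested. With each library left out, 1289 to 1325 genes were higher and 1053 to 1234 lower, and the medians ranged from 0.96 to 0.99 for targets and -0.34 to -0.28 for regulators. Such fits leave 1 library in a group, which is assumed to vary like the other group. A replicate block gave 1285 higher and 1131 lower genes, 5 members were higher and 0 lower, and no call was lost. Libraries sharing a number had deviations that correlated at 0.0927, over only 2 pairs, so no pairing was assumed. Among the tested genes of the lists, the floor of 3 tags touched 1, SLC2A3.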

Other observations

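CA9 had the largest change among the 10 HIF regulators and direct targets, and the genes closest to it in pattern were found by the Euclidean distance of log2(FPKM + 1), centred on each gene's mean over the 4 libraries. They were CP, which encodes the iron oxidase ceruloplasmin (distance 0.147), GJB2, a gap junction protein (0.181), and MMP1, an interstitial collagenase (0.229). CP had 3.66 and 3.45 FPKM on TCP and 167 FPKM in both polymer X libraries, close to the values of CA9 in level as well. GJB2 had 0.380 and 0.430 FPKM on TCP and 43.5 and 47.4 on polymer X. MMP1 had 22.6 and 20.02 FPKM on TCP and 899 and 888 on polymer X. The likeness was measured over 4 libraries in 2 groups only.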
